A study of Mus musculus with 4 samples.

Results

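The genes of pyruvate entry and of the pyruvate dehydrogenase (PDH) complex were compared between isolated mitochondria and the remaining tissue of mouse skeletal muscle. The group is defined by gene names, and its rule uses no measured value, though it was drawn up with earlier results of these data known. It holds 10 of the 16472 genes measured: Mpc1, Mpc2, Pdha1, Pdhb, Dlat, Pdhx, Dld, Pdk1, Pdk2 and Pdp1. RNA sequencing of 4 libraries was available, all from skeletal muscle of wild-type mice without any stated treatment: 2 libraries of isolated mitochondria (SM-mito) and 2 libraries of the remaining tissue (SM-total). The labels call SM-total the tissue without its mitochondria, whereas the study also speaks of a total lysate, so how much mitochondrial material SM-total lost is not known. The muscle taken and the age of the mice are not given in the sources used here, nor is whether replicates came from separate animals, and p-values therefore measure only the spread between these libraries, which may be technical. For heart mitochondria the study describes a digitonin and RNase A treatment before RNA isolation; whether muscle mitochondria were treated alike is not given. The study also adjusted RNA fragmentation time to mitochondrial RNA, a step that coincides with the groups and cannot be told apart from them.

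Pyruvate made by glycolysis in the cytosol crosses the inner mitochondrial membrane through the mitochondrial pyruvate carrier, a pair of small proteins encoded by Mpc1 and Mpc2. In the matrix the PDH complex turns it into acetyl-CoA through E1 (Pdha1 and Pdhb), E2 (Dlat) and E3 (Dld), with the E3-binding protein (Pdhx) holding E3 in place. PDH kinases (Pdk1, Pdk2) switch E1 off by phosphorylation and the phosphatase (Pdp1) switches it back on, which sets the use of carbohydrate or fat in working muscle. All of these proteins are encoded in the nucleus, translated outside the matrix and imported, so that the libraries measure the nuclear transcripts found with the organelle and not the proteins within it.

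Most of these proteins reach the matrix by an N-terminal targeting stretch that is typically rich in arginine and lysine and poor in acidic residues, while the carrier proteins insert into the inner membrane without a cleaved one. The starts of 9 of the 10 coding sequences are shown because they encode this end of the protein. Each run holds the first 60 bases (20 codons) of the principal GENCODE M21 transcript on the GRCm38 genome, with arginine and lysine codons in capitals.
Mpc1: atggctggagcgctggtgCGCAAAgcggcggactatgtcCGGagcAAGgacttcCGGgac
Mpc2: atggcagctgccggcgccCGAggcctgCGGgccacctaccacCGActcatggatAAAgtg
Pdha1: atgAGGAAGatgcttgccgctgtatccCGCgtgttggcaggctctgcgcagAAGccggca
Pdhb: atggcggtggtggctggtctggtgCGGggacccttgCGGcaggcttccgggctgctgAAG
Dlat: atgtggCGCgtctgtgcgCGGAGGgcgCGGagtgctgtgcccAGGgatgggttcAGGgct
Pdhx: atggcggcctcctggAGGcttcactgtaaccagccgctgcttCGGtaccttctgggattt
Dld: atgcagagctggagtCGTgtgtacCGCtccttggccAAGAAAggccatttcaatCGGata
Pdk1: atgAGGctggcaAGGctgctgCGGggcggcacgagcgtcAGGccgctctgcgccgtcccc
Pdk2: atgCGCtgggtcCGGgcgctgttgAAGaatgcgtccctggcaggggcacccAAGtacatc
The 9 starts held a median of 4 basic codons and 0 acidic codons, and 6 of 9 held no acidic codon. Over the 6414 nuclear protein-coding genes tested, the medians were 2 basic and 2 acidic codons, and 1539 starts (24.0%) held no acidic codon. Dlat had the most basic codons (6) of the 9, whereas Mpc1 combined 5 basic with 3 acidic codons. These counts describe the sequences and were set beside no expression value.

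Values are normalized counts, that is, reads per gene divided by a size factor of the library and rounded by the authors. In the remaining tissue 1 normalized count stood for an estimated 7.05 reads, on the assumption that both tissue libraries had one size factor, while in the isolated mitochondria 1 read was worth 9.05 and 5.06 normalized counts. Estimated totals were 15704009 and 15301838 reads in the remaining tissue and 42750347 and 35305342 reads in the isolated mitochondria. Genes of the mitochondrial genome held 20.5 to 22.3% of the reads in the remaining tissue and 94.1 to 95.3% in the isolated mitochondria, and nuclear genes outside nuclear copies of mitochondrial sequence were left with 100924 and 181152 reads in the mitochondrial libraries against 11989606 and 11968662 in the tissue libraries. Each of the 10 genes rested on 3 to 62 reads per mitochondrial library, and counting error was therefore large on that side. Over 16472 genes the log2 values of the tissue libraries correlated at 0.983 and those of the mitochondrial libraries at 0.709, across genes that are not independent replicates.

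Of the 10 genes, 4 were lower in isolated mitochondria on the deposited scale: Dld, Dlat, Pdk2 and Pdha1 passed an adjusted p of 0.05 (limma), and none was higher. Over all 6916 genes tested, 9.3% passed in the lower and 7.32% in the higher direction. All 10 log2 fold changes lay below 0, with a median of -1.04 and a range of -1.51 to -0.32, beside a median of -0.44 over all genes tested, of which 4364 lay below 0. In 9 of the 10 genes both mitochondrial libraries lay below both tissue libraries, which was also so for 43.7% of all genes tested; in none did they lie above them, as they did in 25.5% of all genes. The unadjusted p was under 0.05 in 7 of the 10, all lower, against 21.9% of all genes tested. edgeR on the reads called 7 of the 10 lower beside 17.6% of all genes, and 0 higher beside 13.6%. DESeq2 also called 7 lower, beside 19.2%, and 0 higher, beside 16.9%. Without tissue replicate 1 or 2 the median of the members was -1.03 or -1.06, beside -0.33 or -0.34 over all genes tested. Without mitochondrial replicate 1 or 2 it was -0.99 or -1.12, beside -0.32 or -0.43. Each of these fits leaves 1 library in a group and takes the spread from the other group alone. That assumes that the lone library varies alike, and call counts moved widely in these fits, over all genes as well as members. The direction depended on the scaling, since Mpc1, Mpc2 and Pdp1 turned to higher values once libraries were scaled to their nuclear reads. None of the 10 members passed on that scale (limma), beside 2.65% of all genes tested in the lower and 16.0% in the higher direction. In these bulk libraries fewer cells or organelles and less RNA in each of them cannot be told apart.

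**Figure D1:**
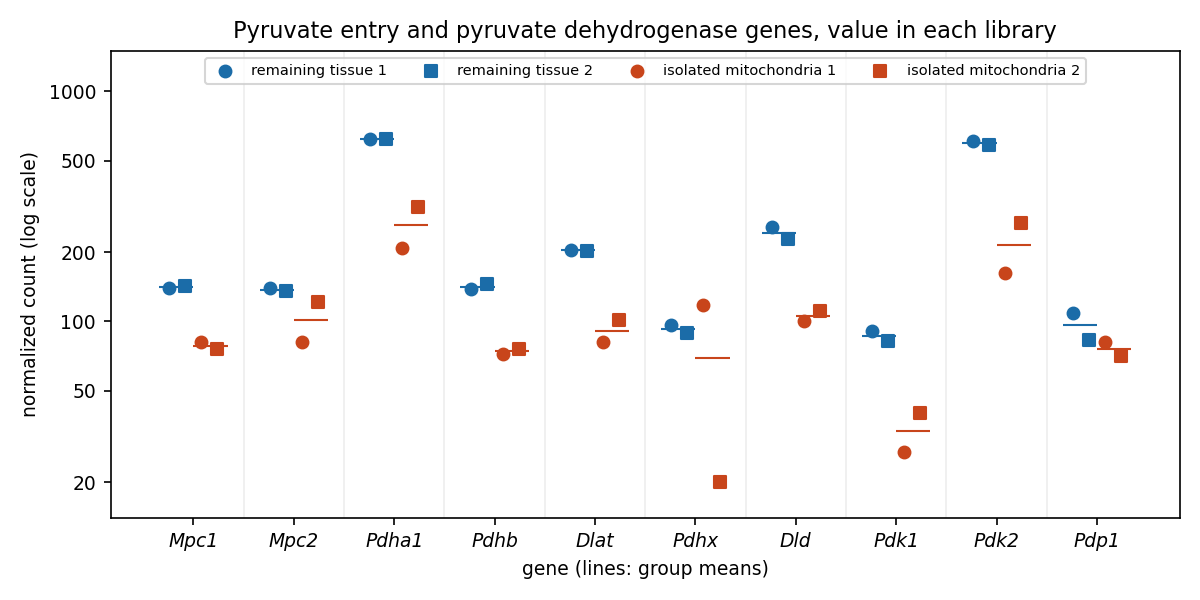
Normalized count (log axis) of each of the 10 genes in the 2 remaining tissue libraries (blue) and the 2 isolated mitochondria libraries (red), with lines at the group means. In 9 genes both red points lie below both blue points; in Pdhx the red points at 118 and 20 lie on either side of the tissue values.

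The pyruvate carrier genes did not pass the test. Mpc1 was at 140 and 142 normalized counts in the remaining tissue and at 81 and 76 in the isolated mitochondria. Both mitochondrial values lay below the tissue values, and the log2 fold change was -0.84 ± 0.21 (SE from 2 against 2 libraries, adjusted p = 0.0697). Mpc2 (ENSMUSG00000026568, chr1:165460637-165481214, plus strand, 5 exons) was at 140 and 135 against 81 and 121, again without overlap, with a log2 fold change of -0.47 ± 0.29 (adjusted p = 0.297), which was -0.18 without mitochondrial replicate 1 and -0.76 without mitochondrial replicate 2. The 2 tissue libraries held both carrier genes at nearly one level, while the mitochondrial libraries matched at 9 reads each in replicate 1 and differed at 15 reads of Mpc1 and 24 reads of Mpc2 in replicate 2.

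Mpc1 (ENSMUSG00000023861, chromosome 17, chr17:8282904-8297661, plus strand, 5 exons) shares sequence with a processed pseudogene, Mpc1-ps (ENSMUSG00000091498, chr12:110858565-110858894, minus strand). Both are shown from coding base 11 to 70 of Mpc1, with the base that differs in capitals.
Mpc1: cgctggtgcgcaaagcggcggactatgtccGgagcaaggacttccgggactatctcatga
Mpc1-ps: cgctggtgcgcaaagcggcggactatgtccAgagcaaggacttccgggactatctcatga
Over the 330 aligned bases this was the single mismatch, G41A, counted from base 1 of the Mpc1 start codon. Of the 884 windows of 75 bases (the read length) in the Mpc1 transcript, 327 (37.0%) also occurred in a transcript of another gene, Mpc1-ps or 4930506C21Rik. Mpc1-ps itself was at 84 and 87 normalized counts in the remaining tissue and at 63 and 106 in the isolated mitochondria, with overlapping groups (log2 fold change -0.06 ± 0.34, adjusted p = 0.903). By the study's methods, reads that mapped to several places or fell on several genes were left out. Reads that fit Mpc1 and Mpc1-ps equally should thus count for neither gene. The log2 difference of the sum of Mpc1 and Mpc1-ps was -0.48, smaller than that of Mpc1 alone. This sum does not recover the reads left out, and the value of Mpc1 is uncertain by them.

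Of the E1 subunits, Pdha1 passed the test and Pdhb did not. Pdha1 (ENSMUSG00000031299, chrX:160122209-160138413, minus strand, 11 exons), which encodes the alpha subunit that the kinases phosphorylate, was at 623 and 623 normalized counts in the remaining tissue and at 208 and 314 in the isolated mitochondria. Pdha1 thus fell 2.39-fold by the group means, which gave -1.28 ± 0.26 on the log2 scale (SE from 2 against 2 libraries, adjusted p = 0.0477). Of its 2774 windows of 75 bases, 386 (13.9%) also occur in transcripts of Map3k15 on the opposite strand, a gene at 3 and 2 against 0 and 0 normalized counts. Whether reads were counted by strand is not given in the study's methods. If they were not, reads from these windows were left out, and the low values of Map3k15 do not measure them. Pdhb, the beta subunit (ENSMUSG00000021748, chr14:8165996-8173025, minus strand, 10 exons), was at 138 and 145 against 72 and 76, with no overlap. The mitochondrial values rest on 8 and 15 reads, so that their closeness is no measure of precision. The log2 fold change of Pdhb, -0.93 ± 0.21, missed the threshold (adjusted p = 0.0585). In Pdhb 287 of 1439 windows (19.9%) are shared with Gm6123, which held at most 9 normalized counts in any library. Reads from those windows fall under the exclusion given for Mpc1, so the low values of Gm6123 do not measure them.

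The genes of E2 and E3 fell, and that of the E3-binding protein could not be placed. Dlat, the acetyltransferase core (ENSMUSG00000000168, chr9:50634633-50659780, minus strand, 14 exons), was at 205 and 202 normalized counts in the remaining tissue and at 81 and 101 in the isolated mitochondria. Dld, the dehydrogenase that several such complexes share (ENSMUSG00000020664, chr12:31331277-31351453, minus strand, 14 exons), was at 257 and 228 against 100 and 111. In both genes the groups lay far apart relative to the spread between libraries. The mitochondrial values rest on few reads, however, 9 and 20 in Dlat and 11 and 22 in Dld. The log2 fold change was -1.16 ± 0.23 in Dlat (SE, adjusted p = 0.0432) and -1.19 ± 0.21 in Dld (adjusted p = 0.0358). Pdhx (ENSMUSG00000010914, chr2:103021075-103073513, minus strand, 11 exons) was at 96 and 89 in the remaining tissue and at 118 and 20 in the isolated mitochondria, from 13 and 4 reads. The mitochondrial libraries lay on either side of the tissue libraries, and the log2 fold change of -0.90 ± 0.90 (adjusted p = 0.497) turned to 0.35 without mitochondrial replicate 2 and to -2.15 without mitochondrial replicate 1. No window of Dlat, Pdhx or Dld was shared with a transcript of another gene.

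Of the kinases, Pdk2 passed the test and Pdk1 did not. Pdk2 (ENSMUSG00000038967, chr11:95026258-95041354, minus strand, 11 exons) was at 608 and 586 normalized counts in the remaining tissue and at 163 and 268 in the isolated mitochondria. It had the lowest fold change of the 10 genes, 2.77-fold lower by the group means and -1.51 ± 0.30 on the log2 scale (SE, limma adjusted p = 0.0452). Pdk1 (ENSMUSG00000006494, chr2:71873224-71903858, plus strand, 11 exons) was at 91 and 82 against 27 and 40, from 3 and 8 reads in the mitochondria, the fewest of any member in replicate 1. Its log2 fold change of -1.37 ± 0.32 missed the threshold (adjusted p = 0.0598). The phosphatase Pdp1 (ENSMUSG00000049225, chr4:11958184-11966452, minus strand, 2 exons) was at 109 and 83 against 81 and 71. These groups did not overlap but were separated by 2 normalized counts, and the log2 fold change was -0.32 ± 0.27 (adjusted p = 0.418). It was -0.13 without tissue replicate 1 and -0.52 without tissue replicate 2. With all libraries Pdp1 lay closest to 0 among the 10 genes and was the only one above the median of all genes tested.

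**Figure D2:**
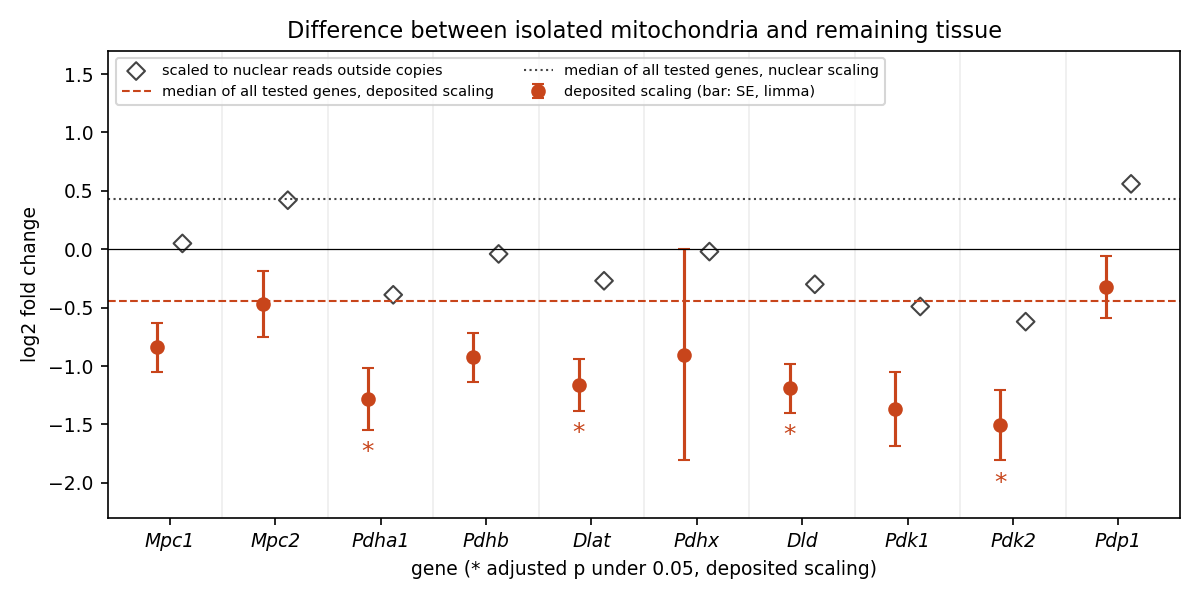
Log2 fold change of isolated mitochondria against remaining tissue for the 10 genes, on the deposited scale (red points with the standard error, an asterisk marking an adjusted p under 0.05) and after scaling to nuclear reads (diamonds), with lines at the median of all genes tested on each scale. The deposited values run from -1.51 (Pdk2) to -0.32 (Pdp1), and the values scaled to nuclear reads from -0.62 to 0.56.

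None of the 10 genes stood at the low end of the nuclear genes. Of the 6862 nuclear genes tested outside nuclear copies, 19.5% had a lower fold change than Pdk2, the lowest member, and 54.0% had a lower one than Pdp1, the highest. Pdk1, Pdha1, Dld and Dlat followed Pdk2 at 22.6, 24.6, 27.1 and 27.9%.

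As a share of the nuclear reads of its own library, no member passed the test in either direction. With limma on values scaled this way, 0 of 10 were called, whereas 2.65% of all genes tested were called lower and 16.0% higher. The median log2 fold change of the members was then -0.16 beside 0.43 over all genes tested, and edgeR on the reads with the same scaling also called 0 of 10, beside 4.19% lower and 25.2% higher overall. Pdk2 took 357 and 345 reads per 1000000 nuclear reads in the remaining tissue, and 178 (95% Wilson interval 113 to 282) and 293 (224 to 383) in the isolated mitochondria. The first mitochondrial library lay below both tissue values and the interval of the second held them. Pdha1 took 366 and 367 such reads in the tissue and 228 (152 to 342) and 342 (267 to 439) in the mitochondria, the same arrangement. Mpc1 took 82.3 and 83.6 against 89.2 (46.9 to 169) and 82.8 (50.2 to 137), and Pdhb 81.2 and 85.4 against 79.3 (40.2 to 156) and 82.8 (50.2 to 137). For these genes, and for Dlat, Dld, Pdk1 and Pdp1, the intervals of both mitochondrial libraries held both tissue values. Mpc2 took 82.3 and 79.5 against 89.2 (46.9 to 169) and 132 (89.0 to 197), with the second library above the tissue. Pdhx took 56.5 and 52.4 against 129 (75.3 to 220) and 22.1 (8.59 to 56.8), so that the mitochondrial libraries differed from each other by more than their intervals. The intervals cover counting error only.

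**Figure D3:**
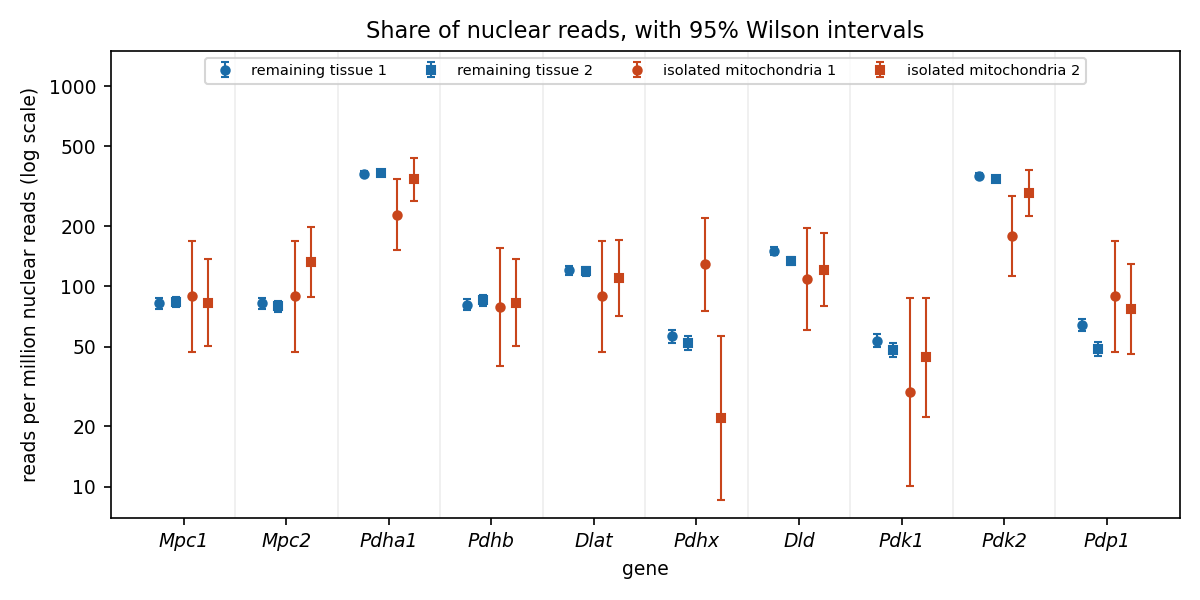
Reads per 1000000 nuclear reads (log axis) of the 10 genes in each library, with 95% Wilson intervals that cover counting error only. Mitochondrial intervals are wide, as for Pdk1 at 29.7 (10.1 to 87.4), and in Mpc1, Pdhb, Dlat, Dld, Pdk1 and Pdp1 both hold the tissue values.

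Ratios between members were also taken within each library, on value + 1. With 2 against 2 libraries the exact permutation test, two-sided, cannot give a p below 0.333, so that none of the 6 ratios examined could pass, before or after adjustment. Pdha1 to Pdhb, the E1 subunits, stood at 4.49 and 4.27 in the remaining tissue and at 2.86 and 4.09 in the isolated mitochondria, without overlap, with a difference in log2 ratio of -0.36 and a pooled SD of 0.26. Dld to Dlat stood at 1.25 and 1.13 against 1.23 and 1.10, the closest match of the 6, with a difference in log2 ratio of -0.03 and a pooled SD of 0.11 (exact permutation p = 0.667). Mpc1 to Mpc2 stood at 1.00 and 1.05 against 1.00 and 0.631, a difference of -0.37 in log2 ratio with a pooled SD of 0.33. The E1 difference was -0.61 without mitochondrial replicate 2 and -0.10 without mitochondrial replicate 1, and the carrier difference -0.04 and -0.70, so that the mitochondrial library used decides their size. That of Dld to Dlat lay between -0.11 and 0.05 when any 1 library was left out. Kinase to kinase, Pdk2 to Pdk1 stood at 6.62 and 7.07 against 5.86 and 6.56, without overlap. Its difference in log2 ratio was -0.14, which became -0.37 when taken on reads, -0.22 without mitochondrial replicate 2, -0.06 without mitochondrial replicate 1 and -0.09 without tissue replicate 2. Kinase to phosphatase, Pdk2 to Pdp1 stood at 5.54 and 6.99 in the tissue and at 2 and 3.74 in the mitochondria. This was the largest of the 6 differences, -1.19 in log2 ratio with a pooled SD of 0.48, and both mitochondrial values lay below both tissue values (exact permutation p = 0.333, the smallest possible). It rests on 9 and 14 reads of Pdp1 in the mitochondria, and was -0.74 without mitochondrial replicate 1 and -1.64 without mitochondrial replicate 2. Dlat to Pdhx ranged from 0.689 to 4.86 within the mitochondria alone, and its difference in log2 ratio, -0.26, was 1.15 without mitochondrial replicate 1 and -1.67 without mitochondrial replicate 2.

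**Figure D4:**
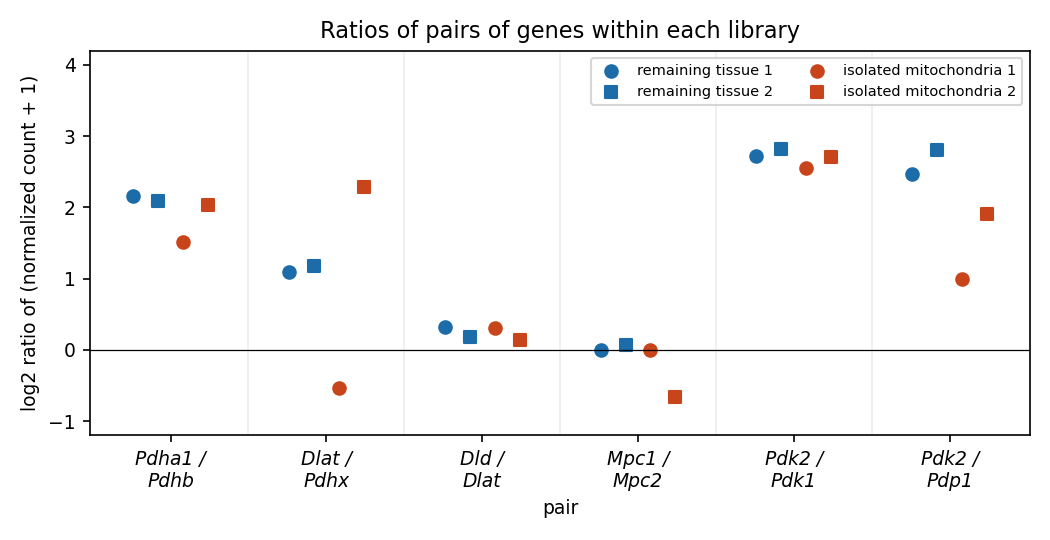
Log2 ratio of (normalized count + 1) for 6 pairs of genes within each library of the remaining tissue and of the isolated mitochondria. Dld to Dlat overlaps between the groups, Pdk2 to Pdp1 lies at 2.47 and 2.81 in the tissue and at 1.00 and 1.90 in the mitochondria, and Dlat to Pdhx is spread from -0.54 to 2.28 in the mitochondria.

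Per kilobase of the principal transcript, Pdk2 had the highest level of the 10 genes in the remaining tissue with 266 normalized counts per kb, followed by Pdha1 (219), Mpc1 (147), Mpc2 (134), Dld (95.3), Pdhb (93.5), Dlat (50.4), Pdhx (36.9), Pdp1 (22.9) and Pdk1 (16.7). Dld and Pdhb were the neighbours in this order whose libraries overlapped. In the isolated mitochondria Mpc2 (98.5), Pdk2 (95.9), Pdha1 (91.6) and Mpc1 (81.9) overlapped with their neighbours and cannot be ranked. They were followed by Pdhb (48.9), by Dld (41.5), Pdhx (27.5) and Dlat (22.6), whose neighbours overlapped, and by Pdp1 (18.1) and Pdk1 (6.46). Pdhx, at 47.1 and 7.98 per kb in the mitochondrial libraries, also lay on either side of Pdp1 (19.3 and 16.9) and cannot be ranked against it. Pdk1 was last in both groups. Pdk1 also stayed last over the length of all annotated exons of a gene. In the tissue Pdk2, Pdha1 and Mpc1 kept the first places in that order, but several other places depended on the length taken. On that length the tissue level was 18.7 per kb in Mpc2, 36.6 in Pdhb, below Dlat at 41.6, and 67.7 in Mpc1, near Dld at 65.8, and in the mitochondria Pdha1 came first at 69.9.

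The other genes that handle pyruvate in muscle were read from lists. Over 4 lists of such genes, 5 of 24 tested genes were lower and 1 was higher, with a median log2 fold change of -0.68 beside -0.44 over all genes tested. Among paralogues and regulators of the complex, 0 of 3 tested passed, with a median of -0.48. Pdk4, the kinase induced in fasting muscle, was at 374 and 487 normalized counts in the remaining tissue and at 208 and 450 in the isolated mitochondria, with overlapping groups (log2 fold change -0.48 ± 0.44, adjusted p = 0.465), and it turned to 0.08 without mitochondrial replicate 1. Pdpr, the regulatory subunit of the phosphatase, was at 259 and 230 against 100 and 35 without passing (adjusted p = 0.0836), and Pdk3 held at most 5 in any library and was not tested. Pdp2, the other phosphatase, was at 9 and 8 against 72 and 0, the 72 being 8 reads in 1 library. Pdha2, Mpc1l and Gldc had no values among the genes measured and were not analysed here.

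Of the related 2-oxoacid dehydrogenase and glycine cleavage genes, 1 of 6 tested was lower, with a median of -0.46. This was Ogdh, the E1 of the 2-oxoglutarate dehydrogenase complex, at 1036 and 1023 against 389 and 470 (log2 fold change -1.27 ± 0.18, adjusted p = 0.0261). Its E2 partner Dlst was at 308 and 301 against 81 and 167 and did not pass (adjusted p = 0.0923). Among the other routes of pyruvate, 4 of 10 tested were lower, with a median of -1.34. Pkm, the pyruvate kinase of the cytosol, was at 2728 and 2885 against 670 and 951 (log2 fold change -1.81, adjusted p = 0.0223). Ldha, the cytosolic lactate dehydrogenase subunit, was at 1773 and 1814 against 642 and 582 (-1.55, adjusted p = 0.0157). Both encode cytosolic proteins, and their fold changes lay below that of Pdk2 (-1.51). The same held for genes of mitochondrial proteins, namely Cs (-1.55), Lias (-1.73, not passed) and Pdpr (-2.02, not passed). Cs, the citrate synthase that uses acetyl-CoA in the matrix, fell by 1.55 on the log2 scale (adjusted p = 0.0254), and Gpt2, the mitochondrial alanine aminotransferase, had a log2 fold change of -1.14 (adjusted p = 0.0424). Of the genes for lipoate, iron-sulphur and thiamine supply, 1 of 5 tested was higher. This was Glrx5, a mitochondrial glutaredoxin, at 41 and 41 against 90 and 96, from 10 and 19 reads. Its log2 fold change was 1.16 ± 0.24 (limma adjusted p = 0.0476). The call was lost with a mean of at least 5 (adjusted p = 0.064), with upper quartile scaling (0.0931), without a trend (0.0702) and with a replicate block (0.0958). It was kept with limma on quantile scaling (0.0393) and on nuclear reads (0.0162), and with edgeR (0.0222), edgeR with TMM (0.0331) and DESeq2 (0.00138). With tissue replicate 1 or 2 left out the log2 fold change was 1.16. These fits leave 1 tissue library, so only the size is given, and it does not speak for the call. On the total of all genes the log2 fold change was -5.55. Lipt1, which attaches lipoate to its target proteins, held 0 reads in both mitochondrial libraries and 5 normalized counts in each tissue library. As 1 mitochondrial read was worth 9.05 and 5.06 normalized counts, a value of 5 lies under 1 read, and the 0 cannot show a difference.

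**Figure D5:**
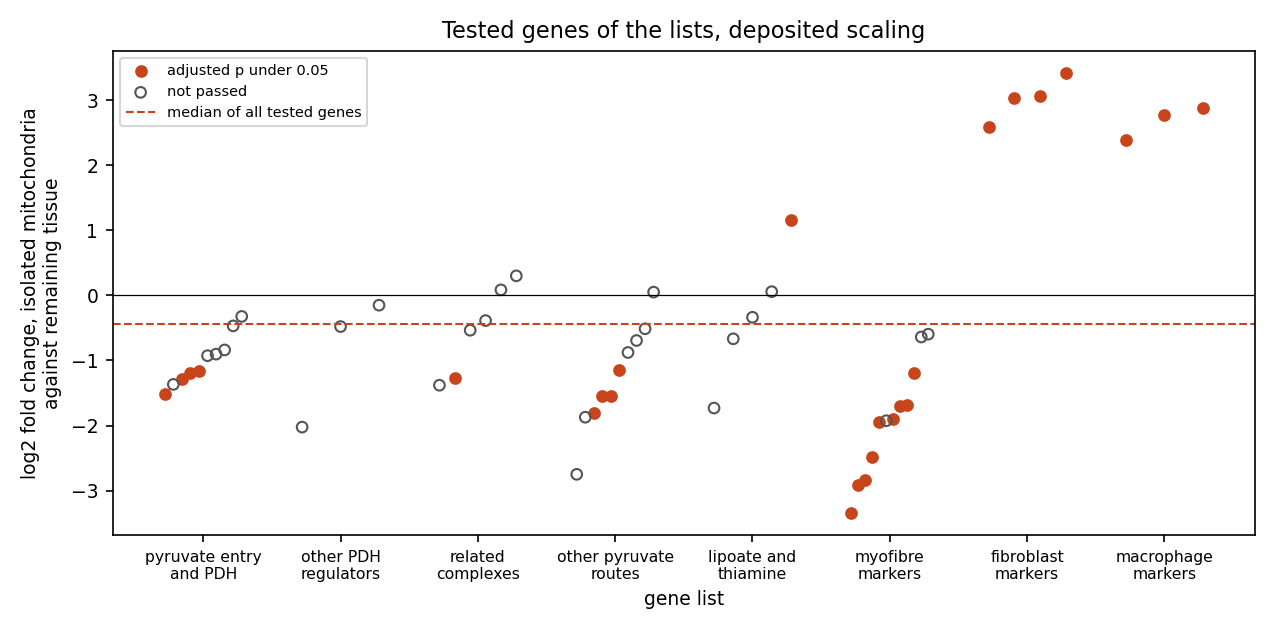
Log2 fold change of isolated mitochondria against remaining tissue for the 10 genes, the tested genes of the 4 other pyruvate lists, and the muscle fibre, fibroblast and macrophage markers; filled points passed an adjusted p of 0.05 and the dashed line is the median of all genes tested. Muscle fibre markers have a median of -1.92, the 10 genes one of -1.04, and the fibroblast and macrophage markers lie above 0.

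The labelled tissue was checked against markers, which also moved between the fractions. Muscle fibre markers summed to 303989 and 314552 normalized counts in the remaining tissue and to 61108 and 59090 in the isolated mitochondria, and 9 of 12 were lower, with a median log2 fold change of -1.92. These were Acta1, Ckm, Myh1, Myh2, Myh4, Mylpf, Tnnt3, Tnni2 and Atp2a1, contractile and calcium pump genes of muscle fibres, from -1.19 in Tnni2 to -3.34 in Myh4. All 10 members thus had a fold change closer to 0 than this median. All 4 fibroblast markers (Col1a1, Col1a2, Col3a1, Dcn) were higher, and their sum rose from 1477 and 1580 to 9664 and 18071. The macrophage markers Csf1r, Adgre1 and Lyz2 were higher too, 3 of 3 tested, with sums of 79 and 97 against 506 and 617. Of the endothelial markers 1 of 4 was lower (Cdh5, log2 fold change -2.59), with sums of 464 and 467 against 81 and 201. None of the tested adipocyte (3), Schwann cell (1) or erythroid (2) markers passed. The adipocyte markers summed to 188 and 428 against 144 and 207, and the erythroid markers to 162 and 172 against 99 and 40. The neuronal marker Rbfox3 was listed at 0 in both tissue libraries and at 471 and 648 in the mitochondrial ones. The other 3 neuronal markers had no values among the genes measured, so that Rbfox3 stood alone. On the total of all genes the fibroblast and macrophage directions turned negative, as did nearly all nuclear genes. The part of these cell types in the values of the 10 genes was not tested.

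The genes whose values over the 4 libraries were most like the median profile of the 10 members were named by the Euclidean distance of centred log2 values, among 6365 other nuclear protein-coding genes with a median distance of 1.36. These were Tnrc18 (0.047), Snrnp200 (0.055), Ubqln4 (0.057), Tor1aip1 (0.066) and Cebpg (0.066). Tnrc18 was at 178 and 168 normalized counts in the tissue and at 81 and 91 in the mitochondria. The members themselves lay from 0.154 (Pdhb) to 1.90 (Pdhx) from their own median. The 5 genes were picked as the nearest of 6365, so their smaller distances follow from that choice and say nothing about the members. The 4 libraries also allow few distinct profiles.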

How the data were processed

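Libraries were prepared from 10 ng of total RNA with a pico-input kit and, per the submitters' processing notes, processed with Trimmomatic 0.39, STAR 2.7.10a (mm10), featureCounts 2.0.2 and DESeq2 1.30.1; the study's methods give other versions of the last 3 tools. The deposited values form 1 table of signal values that are gene counts divided by a DESeq2 size factor and rounded by the authors, called normalized counts. All values under 2000 in the mitochondrial libraries came out as whole reads after rounding (100% of 10508 and 11660), whereas tissue reads were estimated, taking 1 size factor for both tissue libraries and the median-of-ratios rule for its value, with a rounding step of 7.05 reads. Shares of a library do not depend on this estimate, but their intervals in the tissue do. The size factors thus decide where 0 lies on the deposited log2 scale.

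The 6916 genes whose 4-library mean reached 20 were tested with limma 3.58.1 in R 4.3.3 on log2(value + 1), two-sided, with trended variances and Benjamini-Hochberg adjustment at 0.05. The added 1 shrinks the log2 differences of low values. Where replicates differ widely, the mean of logs can instead lie further down than the group means show. An example is Pdhx, at -0.90 with a mitochondria to tissue ratio of means of 0.746. Alternatives used edgeR 4.0.16 and DESeq2 1.42.0 on the reads, other pseudocounts, filters and scalings, and left out 1 library at a time. Scripts were tested on simulated data. Genes were matched to GENCODE M21 (16457 of 16472), and nuclear copies of mitochondrial sequence (17 genes) were found with BLAST 2.17.0 (at least 30 bases and 85% identity over at least 50% of a transcript). Wilson intervals used a 95% level and, as counts are PCR reads without molecular identifiers, cover counting error only.

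The members and lists were chosen with earlier results of these data known. Named besides the members are Pdk4 and Ogdh, listed genes that passed, and the 5 genes nearest to the members' median profile. Pdpr, Pdk3, Pdp2, Dlst, Slc16a3, Lias, Lipt1, Mpc1-ps, Map3k15 and Gm6123 were named after their values were seen. Some items of these lists, and 1 coding start, are not reported here.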

Additional observations from a re-analysis of the deposited data

How the results depend on the processing

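The number of members called lower (4 as reported) rested on the scaling and the spread. It was 0 with a mean of at least 5, without a trend, with quantile scaling and with scaling to nuclear reads, 7 with upper quartile scaling, edgeR, edgeR with TMM and DESeq2, and 10 with scaling to the total of all genes. No member was called higher under any alternative run. Leaving out 1 library, which takes the spread from the other group alone, gave 0 (either tissue library) to 8 (either mitochondrial library) members lower. Over all genes the counts ran from 304 to 1686 higher and from 159 to 3181 lower. Other pathway genes ran from 0 to 6 higher and from 2 to 16 lower. In each of these ranges the low end came without a tissue library and the high end without a mitochondrial one. The member counts of these fits thus moved with those over all genes and do not speak for the members. Genes higher and lower overall (506 and 643 as reported) were 283 and 399 with a mean of at least 5, 38 and 6694 on the total of all genes, 1107 and 183 on nuclear reads, 940 and 1217 with edgeR, 830 and 1648 with TMM, 1170 and 1326 with DESeq2, and 1744 and 290 with edgeR on nuclear reads, an alternative chosen after seeing the data, as was the exon length. Genes lower were 3026 without a minimum, 1421 with the upper quartile and 374 without a trend. The share of calls in the higher direction, 44.0% as reported, was 18.0% without a minimum, 0.564% on the total of all genes, 85.8% on nuclear reads, 23.4% with the upper quartile, 56.0% with quantile scaling, 33.5% with TMM and 85.7% with edgeR on nuclear reads. The median of all genes tested, -0.44 as reported, was -6.90 on the total of all genes, 0.43 on nuclear reads, -0.89 with the upper quartile and -0.24 with quantile scaling. Other pathway genes (5 lower and 1 higher as reported) were 24 lower on the total of all genes, 0 on nuclear reads with limma and with edgeR, 9 with the upper quartile, 1 without a trend, 8 with edgeR, 10 with TMM and 9 with DESeq2, and 0 higher with a mean of at least 5, on the total of all genes, with the upper quartile and without a trend, and 2 higher with edgeR on nuclear reads. On recovered or estimated reads Pdk2 to Pdk1 moved from -0.14 to -0.37.

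Same-numbered libraries correlated at 0.141 in their deviations over 6916 genes, and with 2 pairs and no label that ties them the numbers are only names. With a replicate block 1144 genes were lower, 4 members and 8 other pathway genes were lower, and 0 other pathway genes were higher, with Glrx5 at an adjusted p of 0.0958 and Pdpr (0.000614), Dlst (0.00935) and Slc16a3 (0.000178) newly called lower; the calls of the 10 members did not change. Directions that turned were Pdp1 (0.56 and, with edgeR, 0.53), Mpc1 (0.05 and 0.04), Mpc2 (0.42 and 0.52) and Pdk4 (0.41 and 0.54) on nuclear reads, Pdhx with edgeR on nuclear reads (0.18) and without mitochondrial replicate 2 (0.35, against -2.15 without replicate 1), Pdk4 without mitochondrial replicate 1 (0.08, against -1.03 without replicate 2), and, on the total of all genes, Glrx5 (-5.55), Col1a1 (-3.86), Col1a2 (-3.82), Col3a1 (-3.48), Dcn (-4.30), Csf1r (-4.00), Adgre1 (-3.51) and Lyz2 (-4.43). The cause of these changes was not tested. Of 18 alternatives, Dld and Dlat were called lower in 11, Pdha1 and Pdk2 in 10, Pdhb and Mpc1 in 8, Pdk1 in 7, Pdhx and Mpc2 in 2 and Pdp1 in 1. Depth limits the mitochondrial side, where each member rests on 3 to 62 reads.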
